A study of Mus musculus with 38 samples.

Results

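Ectopic GATA3 in STAT6-deficient Th2 cultures was compared with ectopic T-bet in STAT4-deficient Th1 cultures, by RNA-seq of mouse CD4 T helper cells. The 2 libraries were the STAT6 KO Th2 GATA3 vector and the STAT4 KO Th1 T-bet vector, of 14 RNA libraries and 38 samples in the series. They were taken by genotype, culture and vector label, and every gene with at least 3 FPKM in either library was compared, 8959 of 23700 entries. FPKM divides a gene's fragments by its transcript length and by the library's mapped total, so that levels can be set beside each other between genes. The same knockouts with a control vector served as baselines, and the same vectors in WT cells as the nearest comparison, so that 8 vector libraries are described. Each had 1 library, so no comparison between them has a replicate check, and no test was made.

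T helper cells take their fate from cytokines and from a master transcription factor. In Th1 cells, IL-12 activates STAT4, T-bet (encoded by Tbx21) is induced, and the cells make interferon gamma. In Th2 cells, IL-4 activates STAT6, GATA3 is induced, and the cells make IL-4, IL-5 and IL-13. STAT proteins carry the cytokine signal from receptor to nucleus, and supplying the master factor from a retrovirus asks which lineage genes it can turn on when its usual STAT is missing.

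All cells came from C57BL/6J mice, as naive CD4 T cells sorted from spleen and lymph nodes and activated through CD3 and CD28. Th1 cultures had IL-12 and an antibody to IL-4. Th2 cultures had IL-4 and an antibody to interferon gamma. The knockout libraries were STAT4 KO (Stat4<tm1> allele) in Th1 medium and STAT6 KO (Stat6<tm1> allele) in Th2 medium. The T-bet virus carries the T-bet coding sequence with a truncated human NGFR marker, and the control virus carries the marker alone. The sources used here give only the name of the GATA3 virus. The libraries of the main pair therefore differ in genotype, medium and vector at once, and their effects cannot be told apart in that pair. The labels put all vector cultures at day 5. A second label of the Th1 vector cultures gives day 7 with 2 h of restimulation, and for the Th2 vector cultures the sources used here give no restimulation.

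The 8 vector libraries held an estimated 21900000 to 26410000 fragments in genes, and 9832 to 10374 genes reached 1 FPKM in each. The upper bound of the Cufflinks interval lay a median 15.7% to 16.9% above a value of 1 to 3 FPKM, and 2.02% to 2.28% above one of at least 100 FPKM. It covers counting error only. The only replicate pair of the series, 2 WT Th1 cultures without a vector, differed 2-fold at 2710 of 8686 genes (31.2%), so a 2-fold difference between libraries need not mark a difference between groups. Its replicate 2 stood apart: small RNA genes held 21.1% of its summed FPKM and 49 genes had a failed status, against 5.55% and 4 in replicate 1, and 4.61% to 7.82% of summed FPKM in the vector libraries. The CD4 T cell marker list (8 genes) summed to 913 FPKM with T-bet and 919 with GATA3 in the knockouts. The 2 CD8 T cell markers summed to 1.84 to 3.17 FPKM over the 8 libraries, nearly all of it Cd8b1 (1.80 to 3.08), while Cd8a was at most 0.0884. Summed levels were at most 1.34 for B cell markers (7 genes), 2.04 for myeloid markers (7 genes) and 0.0686 for NK cell markers (3 genes).

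Differences are given as log2(FPKM + 1) of one library minus the other, a scale that understates changes of low genes, and "2-fold" means a difference of at least 1 on it. The GATA3 library was 2-fold higher than the T-bet library at 743 genes (8.29%) and lower at 216 (2.41%). Of these, 732 and 201 had counting intervals that did not overlap. The higher genes made up 77.5% of the 2-fold genes, and 63.7% under upper-quartile scaling. Among genes named below, Atf3, Cxcr6, Gzma, Havcr2, Hpgds, Ifit1, Il12rb2, Irf7, Isg15, Jun, Lrrc32, Nfkbiz, Pdcd1, Pparg, Rora, Samd3 and Zeb2 were 2-fold in this pair with the pseudocount of 1 but not with 5. Under other scalings Gbp7, Havcr2, Nfkbiz and Pdcd1 fell below 2-fold, and Hpgds below the 3 FPKM filter. The control-vector knockouts, with the same media and genotypes, differed far less widely: 34 of 8628 genes (0.394%) were 2-fold higher in STAT6 KO and 52 (0.603%) lower, of which 20 and 11 were small RNA genes. Of these 2-fold genes 39.5% were higher, or 26.3% without small RNA genes. Adding GATA3 to STAT6 KO cells went with 422 genes 2-fold higher (4.72%) and 80 lower (0.895%). Of these 2-fold genes 84.1% were higher, or 71.1% after quantile normalization. Adding T-bet to STAT4 KO cells went with 59 higher (0.69%) and 99 lower (1.16%), of which 17 and 8 were small RNA genes. Of these 2-fold genes 37.3% were higher, and 53.2% with a pseudocount of 5, which left 42 higher and 37 lower. With that pseudocount Cxcr6, Cysltr1, Foxp3, Hpgds, Hvcn1, Lrrc32, Npas4, Pparg, Slc39a10 and Stat4, named below, were no longer 2-fold in the GATA3 step. In the T-bet step the same held for C2cd4b, Ecm1, Foxp3, Gpr83, Gzma, Id1, Il12rb2, Il18rap, Il4, Jun, Klf2, Samd3 and Tnfsf10. For each gene the difference between the main pair equals the baseline difference plus the GATA3 step minus the T-bet step. These comparisons share libraries, so their values are given side by side and none stands as support for another.

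The 2 vectors could first be checked at their own genes. Tbx21 stood at 35.1 FPKM in STAT4 KO cells with control vector and 137 with T-bet vector, at 40.4 in STAT6 KO cells with control vector and 24.7 with GATA3 vector. Gata3 stood at 25.8 and 21.3 FPKM in the STAT4 KO libraries, and at 29.7 and 377 in the STAT6 KO libraries, control vector first. Both labels were thus matched by the RNA of the supplied factor, which FPKM cannot separate from the cell's own. Both knockouts with control vector held similar levels of both factors. In WT cells with control vector Tbx21 was 61.0 in Th1 and 2.43 in Th2, and Gata3 24.9 and 95.7. Stat6 RNA was 36.1 and 23.3 FPKM in the STAT6 KO libraries against 76.5 and 77.7 in the STAT4 KO ones. Stat4 RNA was 7.57 and 6.71 in the STAT4 KO libraries against 19.2 and 7.80 in the STAT6 KO ones. The sources used here do not say which part of either gene the alleles remove, so these levels do not check the genotypes.

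**Figure D1:**
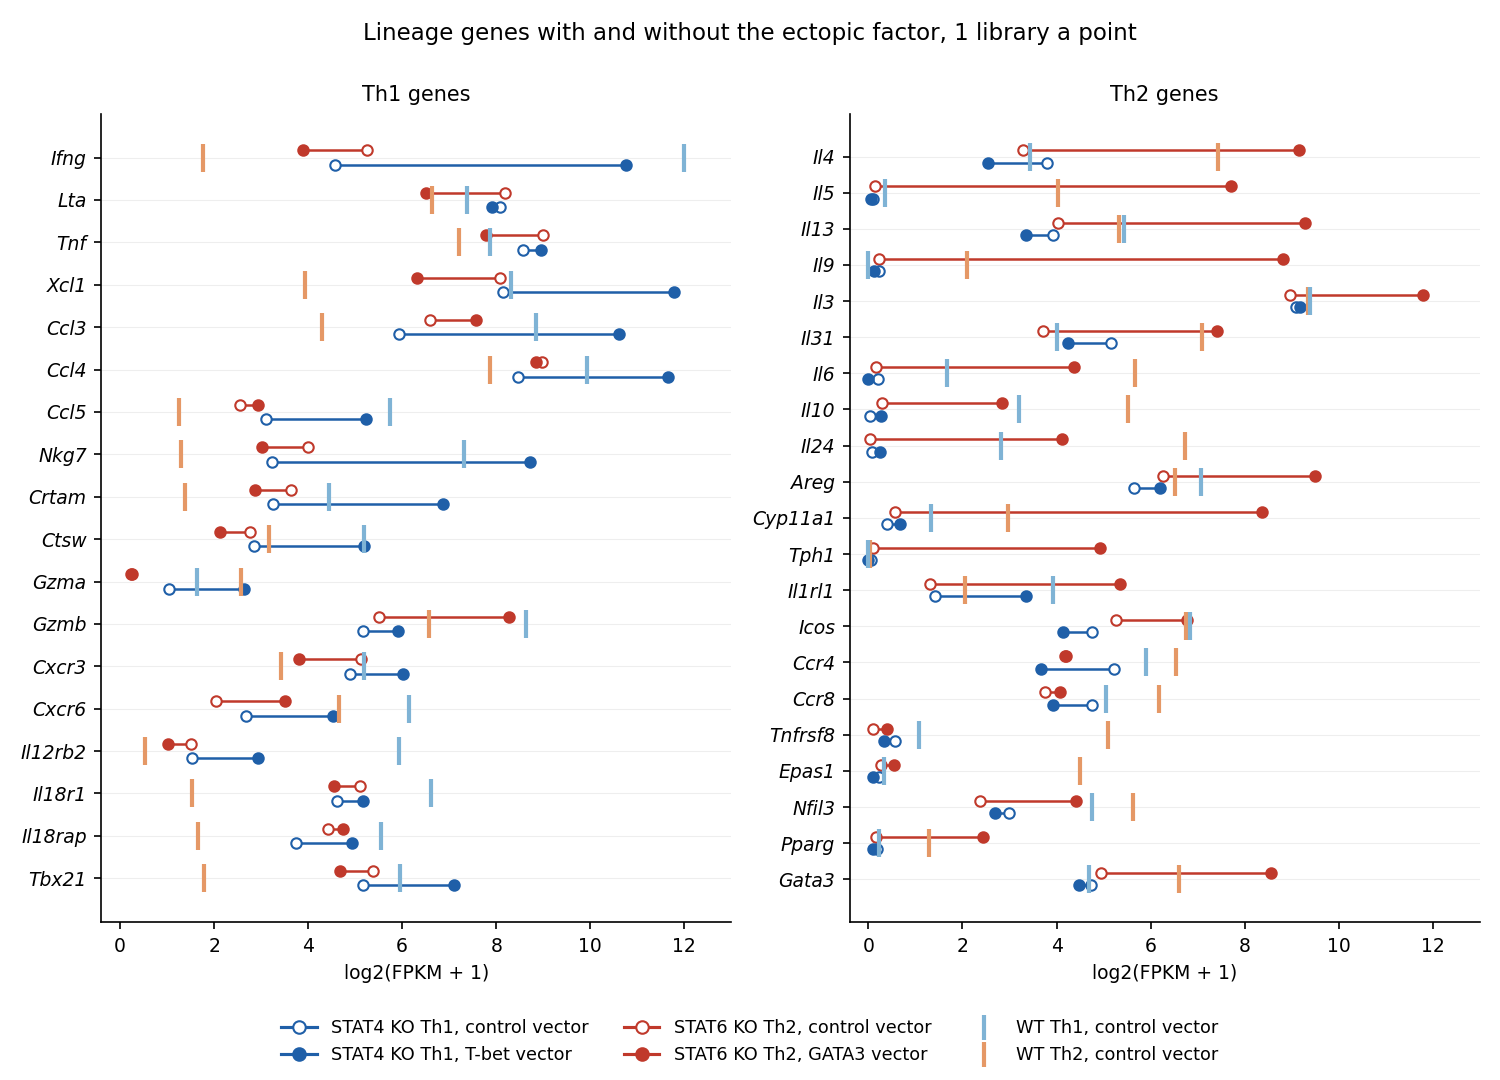
Levels of Th1 genes (left) and Th2 genes (right) as log2(FPKM + 1), with 1 library a point. Open circles are control vector and filled circles the ectopic factor, in STAT4 KO Th1 (blue, T-bet) and STAT6 KO Th2 (red, GATA3), and vertical ticks are WT Th1 (light blue) and WT Th2 (orange) with control vector. Ifng is at 1739 FPKM with T-bet, left of the WT Th1 tick, while Il4, Il5, Il13 and Il9 with GATA3 lie right of the WT Th2 tick.

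With GATA3, all 10 genes of the Th2 cytokine list were 2-fold higher than with T-bet, against 8.29% of all genes compared. In the T-bet step 5 of the 10 passed the filter. The others, Il9 and Il5 among them, passed in the main pair only through the GATA3 library, so their direction was set by the filter. Il9, a growth factor for mast cells and a product of Th2 and Th9 cells, gave the widest difference of the named genes. It stood at 0.172 and 0.0864 FPKM in the STAT4 KO libraries (control vector, then T-bet) and at 0.162 and 448 in the STAT6 KO libraries (control vector, then GATA3), a log2 difference of 8.69 in the main pair. Il5, which acts on eosinophils, stood at 0.0633, 0.0422, 0.0993 and 208 FPKM in the same order, a difference of 7.64. For both genes the first 3 libraries were near 0 and the GATA3 library stood alone. Il4, the cytokine that drives Th2 fate itself, stood at 12.9, 4.80, 8.71 and 570 FPKM, a difference of 6.62. Il13, a driver of mucus and airway responses, stood at 14.2, 9.13, 15.3 and 620 FPKM, a difference of 5.94. Il4 and Il13 thus had a measurable level without either vector, and Il4 was lower with T-bet by 1.26. These 3 cytokine genes are neighbours on chromosome 11 (mm9): Il4 at chr11:53425963-53432167, Il13 at chr11:53444825-53448204 and Il5 at chr11:53534296-53538605.

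The levels with GATA3 in the absence of STAT6 can be set beside WT Th2 cells with control vector, which keep STAT6 and their own GATA3. Il13 was 620 FPKM against 38.9 there, Il5 208 against 15.4, Il4 570 against 173, and Il9 448 against 3.28. Il3, a growth factor for blood cells, was 3544 against 649, and Areg, an EGF receptor ligand, 717 against 90.2. Il31, a cytokine linked to itch, was 169 against 137. The other 3 cytokines stayed lower than in WT Th2: Il10, a suppressive cytokine, at 6.16 against 44.96, Il24 at 16.4 against 105, and Il6 at 19.8 against 50.2. So 7 of the 10 cytokines stood above the WT Th2 control level and 3 below it, with ectopic Gata3 RNA at 377 against 95.7.

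Other Th2 genes were split. Of the Th2 enzymes and secreted proteins, 4 of 5 passed the filter and all 4 were 2-fold higher with GATA3 (median over the 5, 1.86). Cyp11a1, Tph1 and Hpgds passed only through the GATA3 library, so their direction was set by the filter. Cyp11a1, the enzyme that begins steroid synthesis, stood at 0.322 and 0.590 FPKM in the STAT4 KO libraries, 0.487 in STAT6 KO with control vector and 330 with GATA3. Tph1, the first enzyme of serotonin synthesis outside the brain, stood at 0.0461, 0, 0.0691 and 29.3. Hpgds, a prostaglandin D2 synthase, was 3.02 with GATA3 and 0.235 with T-bet, and Ecm1, a secreted matrix protein, 43.8 against 11.3. Ecm1 in WT Th2 cells was 51.8 with control vector and 553 with GATA3.

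Among Th2 receptors, 11 of 12 listed genes were measured at 1 locus and 7 passed the filter. Of these, 3 were 2-fold higher with GATA3 and 0 lower, beside 8.29% and 2.41% of all genes compared. Il1rl1, the IL-33 receptor, was 1.68 FPKM in STAT4 KO with control vector and 9.18 with T-bet, 1.46 in STAT6 KO with control vector and 39.9 with GATA3. Both vectors thus went with more Il1rl1 RNA. Icos, a costimulatory receptor, was 16.6 with T-bet and 109 with GATA3, and Cysltr1, a leukotriene receptor, 0.318 and 7.53. The chemokine receptors Ccr4 and Ccr8 behaved otherwise: with GATA3 they stood at 17.3 and 15.9 FPKM, against 17.2 and 12.4 without it, and at 92.1 and 71.4 in WT Th2 with control vector. Ccr4 was lower with T-bet, 11.7 against 36.4. Tnfrsf8 (CD30) was 0.0770 FPKM in STAT6 KO cells with control vector, 0.313 with GATA3 and 33.0 in WT Th2 cells.

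In the main pair 8.29% of all genes compared were 2-fold higher with GATA3 and 2.41% lower. Of 15 Th2 transcription factor genes, 12 passed the filter, 3 were 2-fold higher with GATA3 than with T-bet and 0 lower. They were Batf, an AP-1 family factor, at 68.8 against 25.7 FPKM, Nfil3, a bZIP factor, at 20.3 against 5.46, and Pparg, a lipid-sensing nuclear receptor, at 4.43 against 0.0763. Epas1, a hypoxia-inducible factor, was 0.209 FPKM in STAT6 KO cells with control vector, 0.457 with GATA3 and 21.5 in WT Th2 cells. Over all 41 measured genes of the 4 Th2 lists, 33 passed the filter, against 22 at baseline. Of the 33, 20 were 2-fold higher with GATA3 and 0 lower. In the T-bet step 23 passed, so some of the 33 passed only through the GATA3 library, Pparg and Cysltr1 among them. The direction of such genes was set by the filter. The median difference over the 41 was 1.08, beside 0.020 over all genes compared. In the GATA3 step 20 of the Th2 list genes were 2-fold higher and 0 lower, beside 4.72% and 0.895% of all genes compared. There too 33 passed, some of them only through the GATA3 library. In the T-bet step Il1rl1 was 2-fold higher and Ccr4, Ecm1 and Il4 lower. At baseline 0 were higher and 4, Ccr4, Ccr8, Il31 and Stat5a, lower in STAT6 KO. Of these 4, 1 (Il31) was left after quantile normalization and 3 under upper-quartile scaling, without Ccr8.

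The promoters of Il5, Il13, Ifng and Nkg7 are shown to place the binding motifs of the 2 factors, and were picked by name, not by rank. Il9, Cyp11a1 and Il4 had wider differences in the main pair than Il13 and are not shown. Windows of 250 bases before the RefSeq start (GRCm38.p6 table) were searched on both strands for the GATA factor motif AGATAA, with A or T as its first and A or G as its last letter, and for TCACAC, a T-box core. The stretches below end within 2 bases of the start listed in the gene tables, are given 5′ to 3′ on the gene's strand with build mm9 positions, and have motif matches in capitals.
Il5, chr11:53534196-53534295, plus strand: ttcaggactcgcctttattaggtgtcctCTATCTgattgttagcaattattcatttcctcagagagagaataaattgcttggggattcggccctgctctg
Il13, chr11:53448205-53448304, minus strand: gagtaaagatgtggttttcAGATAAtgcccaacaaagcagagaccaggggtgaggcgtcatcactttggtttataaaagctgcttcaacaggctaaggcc
Ifng, chr10:117877980-117878101, plus strand: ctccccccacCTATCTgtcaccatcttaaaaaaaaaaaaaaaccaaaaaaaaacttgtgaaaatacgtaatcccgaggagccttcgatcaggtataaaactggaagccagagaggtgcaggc
Nkg7, chr7:50692408-50692507, plus strand: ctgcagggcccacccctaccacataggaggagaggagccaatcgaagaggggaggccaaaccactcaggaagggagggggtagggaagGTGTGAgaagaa
In these stretches a GATA motif lay at -72 of Il5, -81 of Il13 and -113 of Ifng, and a T-box core at -12 of Nkg7, counted from the listed start. A GATA motif was held by 16.1% of 8188 windows of compared genes and by 21.4% of 415 windows of genes 2-fold higher in the GATA3 step. A T-box core was held by 9.06% of the windows of compared genes and by 9 of 36 windows (25%) of genes 2-fold higher in the T-bet step. Over all 32851 windows of the table the shares were 26.5% and 12.3%. Small RNA genes were left out, and 306 of 412 and 31 of 42 genes of the 2 steps had a window. A match is a string of letters and does not show that a factor binds there.

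With T-bet in the absence of STAT4, 34 of 46 measured genes of the Th1 lists passed the filter. Of these, 14 were 2-fold higher than with control vector, against 0.69% of all genes compared in that step. Ifng (chr10:117878103-117882948, mm9), the defining Th1 cytokine, stood at 22.6 FPKM in STAT4 KO cells with control vector and 1739 with T-bet, and at 37.3 in STAT6 KO cells with control vector and 13.9 with GATA3. The difference in the main pair was -6.87, the widest of the named genes on that side. The T-bet level of 1739 lay below the 4074 of WT Th1 cells with control vector and the 5199 of WT Th1 cells with T-bet. Of the other 5 listed cytokines and death ligands none was 2-fold higher in the T-bet step, and Tnfsf10 (TRAIL) was lower, 5.06 against 11.9. Lta and Tnf were 2-fold lower in the main pair, by 1.41 and 1.16, through the GATA3 library: Lta was 268 and 240 FPKM without and with T-bet, but 290 and 89.6 without and with GATA3.

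All 4 listed Th1 chemokines, which draw NK cells, T cells and monocytes, were 2-fold higher in the T-bet step and 2-fold lower with GATA3 than with T-bet (2.41% of all genes compared were lower). Xcl1 stood at 281 FPKM in STAT4 KO with control vector and 3531 with T-bet, and at 268 in STAT6 KO with control vector and 78.3 with GATA3. Ccl3 stood at 59.7, 1559, 95.4 and 189 in that order, Ccl4 at 350, 3213, 503 and 459, and Ccl5 at 7.62, 36.8, 4.86 and 6.62. With T-bet, Xcl1, Ccl3 and Ccl4 lay above their WT Th1 control levels of 317, 460 and 977, and Ccl5 below its 52.8. Ccl9, a related chemokine outside the list, was 0.699 without and 8.87 with T-bet. Ccl9 passed only through the T-bet library, so its direction was set by the filter.

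Of 15 genes of cytotoxic granules and NK receptors, 8 passed the filter, with 5 lower and 1 higher in the GATA3 library than in the T-bet library. Over all genes compared 2.41% were lower and 8.29% higher. Nkg7, a granule membrane protein of killer cells, stood at 8.41 FPKM without and 422 with T-bet, against 15.02 and 7.11 without and with GATA3, a difference of -5.70. Crtam, a receptor of cytotoxic T cells, stood at 8.49 and 115 against 11.4 and 6.30, and Ctsw, a cathepsin, at 6.19 and 35.4 against 5.84 and 3.38. Gzma (granzyme A), which passed only through the T-bet library, was 5.20 with T-bet in STAT4 KO cells and 97.4 in WT Th1 cells. Gzmb (granzyme B) went the other way: 34.7 and 59.4 FPKM without and with T-bet, and 44.4 and 307 without and with GATA3. Prf1 (perforin) stayed at 1.11 FPKM or less in the 4 knockout libraries.

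Of 11 Th1 receptor and homing genes, 10 passed in the T-bet step, where Cxcr3, Cxcr6, Il12rb2 and Il18rap were 2-fold higher and Ifngr2 lower. Over all genes compared in that step 0.69% were higher and 1.16% lower. Il12rb2, the signal chain of the IL-12 receptor, passed in the knockouts only through the T-bet library. It was 1.89 FPKM without and 6.62 with T-bet in STAT4 KO cells, and 60.0 and 64.5 in WT Th1 cells. Il18r1, an IL-18 receptor chain, was 23.4 and 35.0 against 96.5 and 80.3. Cxcr3, which guides Th1 cells to inflamed tissue, reached 63.8 FPKM with T-bet, above the 35.5 of WT Th1 control cells, and fell by 1.31 on the log2 scale in the GATA3 step. Ifngr2, a chain of the interferon gamma receptor, was 14.8 and 3.47 without and with T-bet, and 12.5 and 16.7 without and with GATA3. Cxcr6 was 2-fold higher in both steps. Havcr2 (TIM-3) was 12.6 FPKM with T-bet and 28.3 with GATA3, a difference of 1.11 that was 0.99 under upper-quartile scaling.

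Of the 10 Th1 transcription factor genes, 6 passed the filter in the T-bet step. None of these was 2-fold higher, beside 0.69% of all genes compared in that step. Irf1, an interferon-induced factor, was lower, 77.9 FPKM with T-bet against 204 without. In the main pair Irf1 and Prdm1 were 2-fold higher with GATA3 and Zeb2, a transcription factor of terminal effector T cells, lower. Prdm1 (Blimp-1) was 7.51 FPKM with GATA3 and at most 0.676 in the other 3 knockout libraries, so its direction was set by the filter. Over all 46 measured genes of the 5 Th1 lists, 35 passed the filter, and the median was -0.66. With GATA3, 16 were 2-fold lower and 5 higher than with T-bet, beside 2.41% and 8.29% of all genes compared. In the T-bet step 14 were higher and 3 lower, with a median of 0.47 beside -0.0031 over all genes compared. The shares of all genes higher and lower were 0.69% and 1.16% in that step, and 4.72% and 0.895% in the GATA3 step. In the GATA3 step 7 were lower, namely Cxcr3, Fasl, Ifng, Lta, Tnf, Tnfsf11 and Xcl1, and 5 higher; Nkg7 joined the lower ones under upper-quartile scaling and quantile normalization. At baseline 0 were 2-fold different either way.

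**Figure D2:**
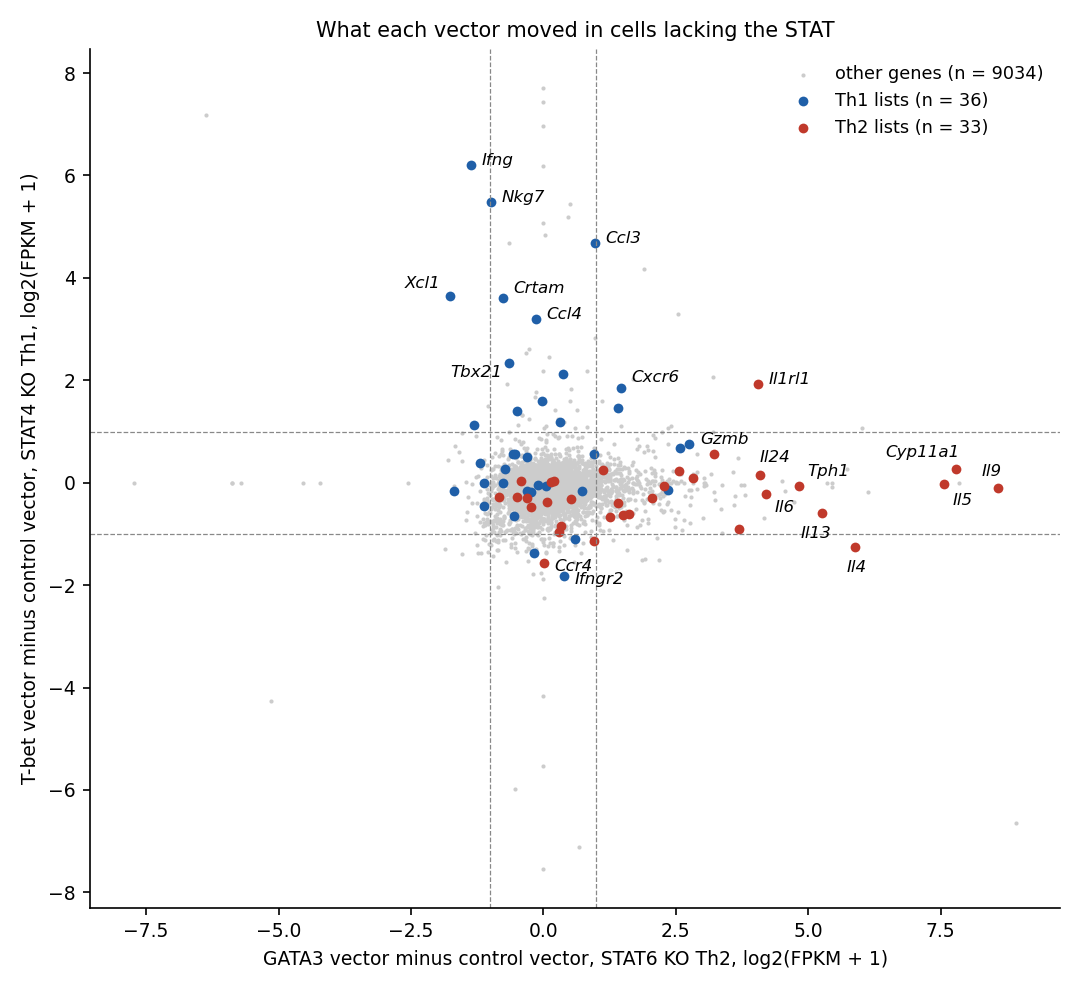
Difference of each gene on addition of GATA3 to STAT6 KO Th2 cells (horizontal) against addition of T-bet to STAT4 KO Th1 cells (vertical), both in log2(FPKM + 1), for genes with at least 3 FPKM in a library of either step. Dashed lines mark 2-fold; Th1 genes (blue) spread up the vertical axis, Th2 genes (red) along the horizontal axis, and Il1rl1 lies high on both.

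The GATA3 step and the T-bet step share no library, so their gene sets could be compared. Higher in both were 11 genes, 2.61% of the 422 and 18.6% of the 59, among them Il1rl1, Cxcr6, Serpinb9 and Ctla2a. Higher with GATA3 and lower with T-bet were 8 genes (1.90% and 8.08%), among them Il4, Socs3 and Gpr83. Ifng, Xcl1, Cxcr3 and Mir31 were lower with GATA3 and higher with T-bet (5% of the 80 and 6.78% of the 59). Lower in both were 11 genes (13.8% and 11.1%), among them Foxp3, the Treg factor, at 4.34 FPKM with T-bet against 10.46 without and 3.25 with GATA3 against 8.38 without. Over all genes compared in the GATA3 step 4.72% were higher and 0.895% lower, so each of the 4 shares of a T-bet set lay above the share over all genes. Small RNA genes were part of each overlap: Mir719, Snora21 and Snora2b of the first, and Snora33, Mir31 and Snora62 of the others in order. Such genes made up 17 of the 59 and 8 of the 99 genes of the T-bet step. Foxp3 and Gpr83 were below 2-fold in the T-bet step after quantile normalization.

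Beyond the lineage lists, the 15 genes with the widest differences toward GATA3 included enzymes, hormones and secreted proteins. Hdc, which makes histamine, was 103 FPKM with GATA3 and at most 0.485 in the other 3 knockout libraries. Asb2, a ubiquitin ligase subunit, was 54.8 and at most 0.349 there, Mt1, a metal-binding metallothionein, 65.2 and at most 0.509, and Slc7a8, an amino acid transporter, 24.5 and at most 0.124. Calca, which encodes calcitonin and CGRP, was 27.8, Htr1b, a serotonin receptor, 25.4, Hamp, the iron hormone hepcidin, 22.2, and Lgals7, a galectin, 128. Lgals7 was also found without GATA3, at 11.4. Hdc, Asb2, Mt1, Slc7a8 and Calca passed the filter only through the GATA3 library, so their direction was set by the filter.

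Mcpt8, a protease of basophils, was 42.7 FPKM with GATA3 and listed at 0 in the other 3 knockout libraries. Mcpt8 too passed only through the GATA3 library, so its direction was set by the filter. The list of 5 mast cell and basophil markers summed to 46.1 FPKM with GATA3 and to 0.653 to 0.958 in the other knockout libraries, and to 69.1 in WT Th2 with GATA3. Cpa3 was 2.34 and Kit 1.10 with GATA3. Fcer1a and Ms4a2, which encode chains of the IgE receptor that defines these cells, were listed at 0 in that library. Hdc, Il4, Il13 and Il9 are also made by such cells, and the part of these markers in the cytokine result was not tested. In bulk RNA, more cells of a type and more RNA per cell cannot be told apart.

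Among genes toward T-bet outside the lists, Cldnd2, a claudin domain protein, was 6.37 FPKM with T-bet against 0.207 without, and Cd24a, a surface glycoprotein, 129 against 50.7. Samd3 was 4.51 with T-bet and listed at 0 without. C2cd4b was 9.31 with T-bet and 0.546 with GATA3. Cldnd2, Samd3 and C2cd4b passed only through the T-bet library, so their direction was set by the filter. Slc39a10, a zinc transporter, was 42.7 and 46.1 without and with T-bet, and 20.1 and 7.72 without and with GATA3, so its place came from the baseline and the GATA3 step. Its baseline difference of -1.05 was below 2-fold with a pseudocount of 5 and after quantile normalization. Amica1, an adhesion protein, was 57.8 with T-bet and 10.3 with GATA3. Falls in the GATA3 step that were also 2-fold in WT cells included Slamf6, an immune-cell receptor (34.4 to 9.20 FPKM), Cd160 (66.1 to 20.1), Ltb (291 to 107), Sh2d1a, an adaptor of SLAM receptors (17.6 to 5.94), Cd27 (104 to 40.6), Npas4 (6.39 to 1.28) and Hvcn1 (12.4 to 3.86). Falls in the T-bet step of that kind were Ccr4, Id1 and Il4.

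Interferon-response genes were higher in the GATA3 library. Of 28 listed genes 18 passed the filter, 9 were 2-fold higher with GATA3 and 0 lower, against 8.29% and 2.41% of all genes compared, and 17 of the 18 had a positive difference. The median over the 28 was 0.64, and it was 0.49 to 0.63 under the 3 other scalings. Tgtp1, an interferon-induced GTPase with a near-identical copy, stood at 77.5 and 36.0 FPKM without and with T-bet, and 143 and 155 without and with GATA3. Igtp, of the same GTPase class, stood at 231 and 108, then 327 and 329, and Irgm1 at 83.9 and 50.5, then 126 and 163. Cxcl10, a chemokine ligand of Cxcr3, stood at 18.8 and 9.28, then 34.3 and 29.4. For these 4 genes the T-bet library was the lowest of the knockouts. In the T-bet step Igtp, Iigp1 and Tgtp1 were 2-fold lower and 0 genes of the list higher, and in the GATA3 step 0 were 2-fold different. At baseline 0 were 2-fold different (Tgtp1 was higher after quantile normalization), all 19 that passed were higher in STAT6 KO, and the median was 0.36. The T-bet library thus had more Ifng RNA than the other 3 knockout libraries, and lower levels of these 4 interferon-response genes.

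Of the 9 genes of the STAT feedback list, 5 were 2-fold higher with GATA3 and 0 lower, against 8.29% and 2.41% of all genes compared. They were Bcl3, Osm, Socs1, Socs2 and Socs3, of which Osm encodes a cytokine rather than a feedback regulator. A positive difference was found for 7 of the 9, with Cish at 0.33. Socs3, an inhibitor of cytokine receptors, stood at 14.8 and 4.51 FPKM without and with T-bet, and 20.3 and 77.0 without and with GATA3. Bcl3 stood at 31.3 and 15.8, then 44.98 and 64.8, Socs1 at 75.2 and 38.3, then 67.7 and 118, and Socs2 at 30.05 and 15.6, then 39.9 and 42.0. Of 12 naive and memory genes, 4 were 2-fold higher in the GATA3 library and 0 lower, against the same shares of all genes. Il7r, the IL-7 receptor, stood at 9.82 and 2.16, then 22.4 and 19.3. S1pr1, which lets T cells leave lymph nodes, stood at 15.1 and 7.29, then 31.7 and 27.5, and Klf2, which drives it, at 21.2 and 8.26, then 34.1 and 22.1. The 3 levels were lowest in the T-bet library and differed by less than 2-fold between GATA3 and its control. Il7r and S1pr1 were already 2-fold higher in STAT6 KO at the control-vector baseline, by 1.11 and 1.02, though not with a pseudocount of 5. Id3 was the fourth gene 2-fold higher in the main pair.

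Of other helper programs, 5 of 10 Th17 genes passed the filter, of which 3 were 2-fold higher with GATA3 and 0 lower. Over all genes compared 8.29% were higher and 2.41% lower, the shares to set beside the Th17, Treg, Tfh and T cell receptor counts. Il17f was 41.7 FPKM with GATA3 and 9.71 with T-bet, Il1r1, the IL-1 receptor, 15.2 against 0.110, and Rora 6.69 against 2.16. Il1r1 and Rora passed only through the GATA3 library, so their direction was set by the filter. Il17a was listed at 0 in all 4 knockout libraries. Of 11 Treg genes 9 passed, and Folr4, Gpr83, Ikzf4 and Tnfrsf18 were higher and Lrrc32 lower. Of 8 Tfh genes 4 passed, and Pdcd1 (PD-1) was lower. None of 20 cell cycle genes was 2-fold different in the main pair, with a median of -0.00025. Of 20 genes of the early response to T cell receptor signals, Atf3, Egr1, Fos, Ier3, Jun and Nfkbiz were 2-fold higher with GATA3 and 0 lower, and the median was -0.049. That list summed to 5558 FPKM with T-bet and 4552 with GATA3, and Il2 was 2301 and 1729. Cytokine RNA depends on such signals, so these values stand beside the cytokine results, and their part in them was not tested.

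**Figure D3:**
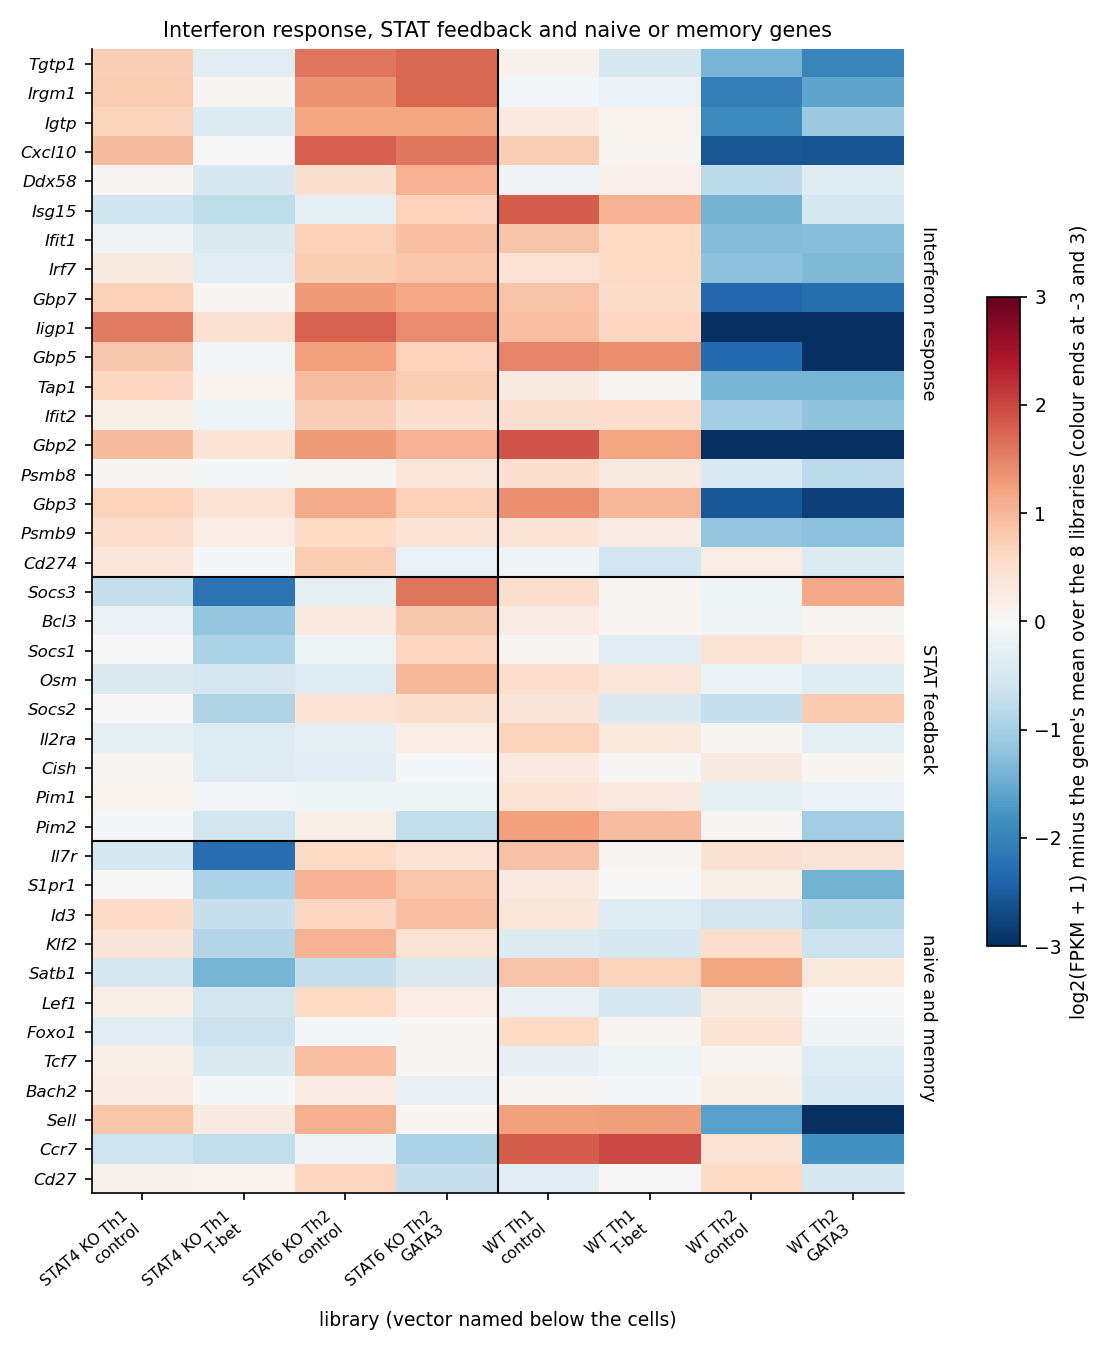
Colour gives log2(FPKM + 1) minus the gene's mean over the 8 vector libraries (columns) for genes that passed the filter in 3 lists (rows), with colours ending at -3 and 3. The STAT4 KO T-bet column is paler or bluer than the other 3 knockout columns for most interferon-response genes, and the 2 WT Th2 columns are the bluest for nearly all of them.

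The same 2 vectors were set against each other in WT cells, which have both STATs. There the GATA3 library was 2-fold higher than the T-bet library at 466 of 8896 genes (5.24%) and lower at 424 (4.77%). With control vectors alone, WT Th2 was 2-fold higher than WT Th1 at 156 genes (1.79%) and lower at 457 (5.23%), so 7.01% of genes differed at the WT baseline and 0.997% at the knockout one. GATA3 in WT Th2 went with 350 genes higher (4.03%) and 106 lower (1.22%), and T-bet in WT Th1 with 37 higher (0.427%) and 23 lower (0.266%). No library is shared between the WT and knockout pairs. Of the genes higher with GATA3, 236 were shared, 31.8% of the 743 and 50.6% of the 466. Of the genes lower, 64 were shared, 29.6% of the 216 and 15.1% of the 424. A further 59 were higher in the knockout pair and lower in the WT pair, and Cst7 and Mir1931 the reverse.

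For single steps, 181 genes were 2-fold higher with GATA3 in both genotypes, 42.9% of the 422 in STAT6 KO and 51.7% of the 350 in WT. With T-bet 17 were higher in both, 28.8% of the 59 and 45.9% of the 37, among them Tbx21, Xcl1, Ccl3, Ccl4, Ccl9, Crtam, Gzma, Nkg7, Cldnd2, Samd3 and Ccr2. Ifng was not among them: T-bet went with a difference of 6.20 in STAT4 KO, from 22.6 FPKM, and 0.35 in WT Th1, from 4074. Il4 was 2-fold lower with T-bet in both, by 1.26 and 1.04. Hdc and Mcpt8 were higher with GATA3 in both, reaching 263 and 59.2 FPKM in WT Th2.

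**Figure D4:**
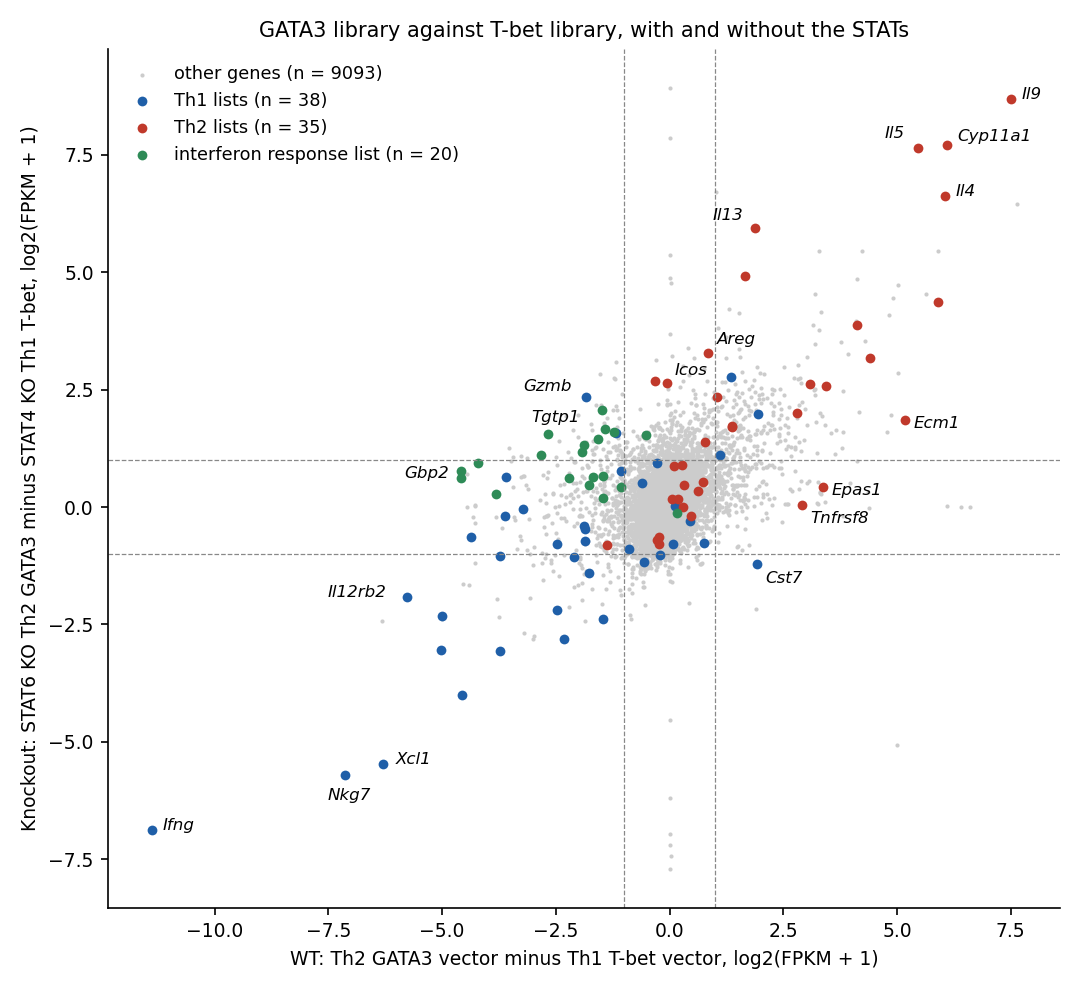
GATA3 library minus T-bet library in log2(FPKM + 1), in WT cells (horizontal) and in the knockouts (vertical), for genes with at least 3 FPKM in a library of either pair; dashed lines mark 2-fold. Ifng, Nkg7 and Xcl1 lie at the lower left and the Th2 cytokines at the upper right. The interferon-response genes (green) lie mostly left of 0 in WT and mostly above 0 in the knockouts.

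The interferon response list pointed opposite ways in the knockout and WT pairs. In WT 20 of its genes passed the filter, 18 were 2-fold lower with GATA3 and 0 higher, with a median of -1.48. Over all genes compared in the WT pair 4.77% were lower and 5.24% higher. The knockout pair had 0 lower and 9 higher of 18 that passed, and a median of 0.64. There 2.41% of all genes compared were lower and 8.29% higher. With control vectors alone, 17 of 20 that passed were already lower in WT Th2 than in WT Th1 and 0 higher, with a median of -1.67. Of all genes compared at that baseline 5.23% were lower and 1.79% higher. In each WT vector step 0 genes of the list were 2-fold different. Gbp2, a GTPase induced by interferon gamma, was 317 FPKM with T-bet and 12.2 with GATA3 in WT, and 187 and 289 in the knockouts. Of the Th1 genes, 25 of 38 that passed were lower in WT and 16 of 35 in the knockouts. At the WT control-vector baseline 22 of 36 that passed were already 2-fold lower, Irf8, Il12rb2 and Gzmb among them, and 2 higher. At the knockout baseline 0 were 2-fold different. The WT GATA3 step had 5 Th1 genes lower and 4 higher, and the WT T-bet step 7 higher and 0 lower. Over all genes compared 1.22% were lower and 4.03% higher in the WT GATA3 step. In the WT T-bet step 0.427% were higher and 0.266% lower. Irf8, an interferon-regulated factor, was 203 and 20.8 FPKM in WT, and 193 and 187 in the knockouts. Il12rb2 was 64.5 and 0.198 in WT, and 6.62 and 1.03 in the knockouts. Gzmb was 273 and 75.4 in WT, and 59.4 and 307 in the knockouts. Of the Th2 genes, 15 of 32 that passed were higher in WT and 20 of 33 in the knockouts. In WT 9 of 10 cytokines were 2-fold higher, with Areg at 0.85 the exception. At the WT baseline 12 of 33 Th2 genes that passed were already higher and 1 lower, and at the knockout one 0 and 4 of 22. With 1 library a group, the difference between the pairs was not tested.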

How the data were processed

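Total RNA of the T helper cultures was sequenced, and the submitters' processing notes name TopHat and Cufflinks, with SICER for other data, and build mm9, with no version. The FPKM values deposited per gene were made by the authors with Cufflinks, with an interval and a status per gene, per the file headers. They give no read counts; fragments were estimated from the interval widths (75.8% to 77.0% of estimates under 30 were within 0.02 of a whole number), for description only. Each table had 23700 entries, and 241 symbols at several loci (713 entries) stayed in counts but were not named. A failed status in a vector library removed 37 genes, of which 32 would have passed in the main pair.

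Differences of log2(FPKM + 1) were computed in Python 3.11.15 with pandas 2.3.3 for genes with at least 3 FPKM in either library. The calculation was checked on simulated data. With 1 library a group no test was run. Alternatives were other pseudocounts, filters and scalings, leaving out small RNA genes, and requiring separate intervals. Genes were named as both factors and STATs, the Th1 and Th2 lists, the 15 widest differences each way, the 8 widest in each step that were 2-fold in WT too, and the widest few of other lists. The groups, gene lists and rules were chosen with earlier results of these data known. ChIP samples were not analysed here, and 2 genes of the lists are not reported here.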

Additional observations from a re-analysis of the deposited data

Results flagged for a closer look

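Of the list genes other than cell type markers, 13 were 2-fold different one way in the knockout pair and 2-fold the other way in the WT pair. Each side had 1 library, so the difference between the pairs was not tested. Over all genes, 59 were higher in the knockout pair and lower in WT, 7.94% of the 743, and 2 the reverse, 0.926% of the 216. Of all genes compared in the WT pair, 4.77% were lower and 5.24% higher. Values are log2(FPKM + 1) of the GATA3 library minus the T-bet library, knockout first and WT second. Interferon-induced genes made up most of the 13. At the WT control-vector baseline, 17 of the 28 interferon response list genes were already 2-fold lower in Th2 than in Th1. Of the 28, 20 passed the filter there, and 5.23% of all genes compared were lower. Tgtp1 stood at 2.07 and -1.49, Irgm1 at 1.67 and -1.41, and Igtp at 1.60 and -1.22. Cxcl10 stood at 1.57 and -2.66, Isg15 at 1.46 and -1.56, and Ifit1 at 1.33 and -1.87. Irf1 stood at 1.58 and -1.18, Irf7 at 1.17 and -1.93, and Gbp7 at 1.11 and -2.82. Gzmb (granzyme B) stood at 2.35 and -1.84, S1pr1 at 1.78 and -1.43, and Jun at 1.21 and -1.71. Cst7, an inhibitor of granule cathepsins, was the reverse, at -1.22 and 1.92. In the GATA3 step, Cysltr1 was higher in STAT6 KO by 1.62 and lower in WT Th2, at -1.06. With a pseudocount of 5, Ifit1, Irf7, Isg15 and Jun were below 2-fold in the knockout pair, Ifit1 in the WT pair and Cysltr1 in the STAT6 KO step, and under upper-quartile scaling Gbp7 was below 2-fold in the knockout pair.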

How the results depend on the processing

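Of 126 counts of 2-fold genes under alternative settings, 107 were within 1.5 times the value reported. With a pseudocount of 0.1, 80 genes were lower at baseline and 152 in the T-bet step. With a pseudocount of 5, the main pair had 341 higher and 103 lower, the baseline 18 and 23, the GATA3 step 207 and 33, the T-bet step 42 and 37 (53.2% higher instead of 37.3%), and the WT pair 268 and 236. With at least 10 FPKM in either library, the main pair had 446 higher, the GATA3 step 254 higher, and the WT pair 297 and 282. Upper-quartile scaling gave 341 lower in the main pair, so 63.7% of its 2-fold genes were higher instead of 77.5%, and moved the median of all genes from 0.020 to -0.097. Quantile normalization gave 143 lower in the GATA3 step (71.1% higher instead of 84.1%; median 0.052 to -0.051). Without small RNA genes 15 were higher at baseline (26.3% instead of 39.5%), and with separate intervals 14. Of 98 list members and widest genes 2-fold in the main pair, 0 reversed and 18 fell below 2-fold under at least 1 other pseudocount or scaling: Gbp7 under upper-quartile scaling alone, and Atf3, Cxcr6, Gzma, Havcr2, Hpgds, Ifit1, Il12rb2, Irf7, Isg15, Jun, Lrrc32, Nfkbiz, Pdcd1, Pparg, Rora, Samd3 and Zeb2 with a pseudocount of 5. The cause was not tested. Leaving out a replicate was not possible with 1 library a group. No paired analysis was possible because each group compared has 1 library and the result comes from no test. Depth limits genes near 3 FPKM most.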
